A study of Drosophila melanogaster with 10 samples.

Results

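Transcript levels of 8 genes for Hox, Hox cofactor, spalt and Pax transcription factors were measured in dissected adult oenocytes of Drosophila melanogaster. The tables hold 13986 gene identifiers. The genes were taken by FlyBase symbol: the Hox genes abd-A and Abd-B, the Hox cofactors exd and hth, the spalt genes salm and salr, and the Pax genes sv and Poxm. abd-A and Poxm were chosen because their counts differed from control in these same libraries, so their values are given as a description with no test in any comparison. The other 6 genes were chosen by family and were tested.

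Oenocytes of adult males were dissected, and polyadenylated RNA of 5 genotypes was sequenced with 2 libraries per genotype, 10 in all. Flies were kept at 25°C until eclosion and then at 29°C for 7 days, and every genotype carried the oenocyte driver prom-E800-Gal4, so the transgenes below were driven wherever this driver is active. The control carried UAS-mCD8-GFP, which the labels of the other genotypes do not list. The fru-RNAi genotypes carried a fru hairpin from stock VDRC330035, BDSC#31593 or VDRC105005, and the overexpression genotype carried UAS-FruCOMB. They are called below the libraries labelled VDRC330035, VDRC105005, BDSC#31593 and OE, because fru itself went against the label in some of them. The labels do not say whether the 2 replicates of a genotype came from separate groups of flies, so p-values measure the spread between these libraries, and for 2 libraries against 2 the smallest two-sided p that an exact permutation test of a single value allows is 0.333.

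Hox proteins are homeodomain transcription factors that tell segments along the head-to-tail axis which structures to form, and abd-A and Abd-B act in the abdomen. Exd and Hth are homeodomain proteins of the TALE class that bind DNA together with Hox proteins, and Hth also brings Exd into the nucleus. In the embryo, abd-A switches on rhomboid in a sensory precursor, the Egfr ligand released there recruits neighbouring epidermal cells as oenocytes, and the spalt zinc finger proteins Salm and Salr take part in that response. Pax proteins bind DNA through a paired domain, and sv acts in shaft and cone cells of sense organs while Poxm acts in forming larval muscles.

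The total of expected counts per library lay between 23415357 and 46840805. fru, the targeted gene, was at 319 and 390 counts in control, 671 and 926 in the libraries labelled VDRC330035, 653 and 518 in those labelled BDSC#31593, 230 and 198 in those labelled VDRC105005, and 6164 and 9552 in those labelled OE. Against control, fru was thus higher in 2 of the 3 RNAi genotypes, by 0.57 ± 0.07 (log2 difference ± SE, edgeR adjusted p = 5.2e-06) for VDRC330035 and by 1.03 ± 0.07 (adjusted p = 6.7e-06) for BDSC#31593, and lower for VDRC105005 (-0.68 ± 0.08, adjusted p = 0.00013). The tables hold 1 row for fru, so reads from a fru hairpin or from UAS-FruCOMB may be counted in it and cannot be told apart from those of the gene itself. The 6 oenocyte markers were present in every library, led by Cyp4g1, the P450 that makes hydrocarbons, and their summed level, most of it Cyp4g1, was 59800 to 60200 in control, 13500 for VDRC330035, 73100 to 75300 for BDSC#31593, 86000 to 87300 for VDRC105005 and 45300 to 45500 for OE. Without Cyp4g1 the genotypes kept this order over a narrower range, with 5990 to 6010 in control, 4550 to 4560 for VDRC330035, 6160 to 6300 for BDSC#31593, 6880 to 6930 for VDRC105005 and 5030 to 5080 for OE. Levels here are deposited TPM values (transcript abundance per library, corrected for gene length) rescaled between libraries by TMM. Gut markers stood apart in replicate 2 of BDSC#31593 and of VDRC105005, with sums of 660 and 525 against 112 and 97.5 in replicate 1, and no marker of the 8 lists of other cell types was at 0 in both libraries of a genotype except bam in the control.

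**Figure D1:**
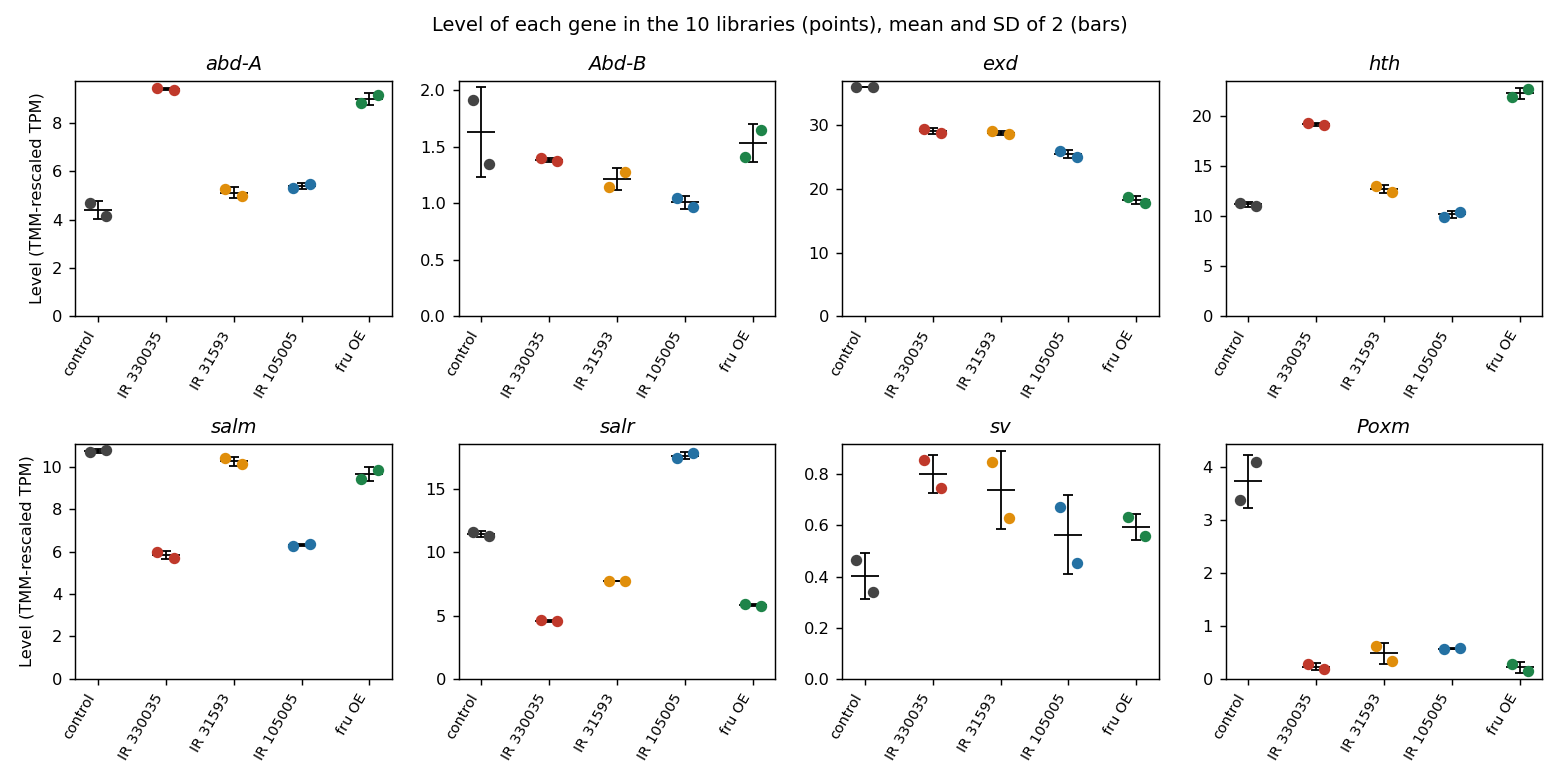
Level of each of the 8 genes (vertical axes, TMM-rescaled TPM) in the 10 libraries, with 2 points per genotype and bars for the mean and SD (IR and a stock number name the RNAi genotypes). exd was the most abundant of the 8, at 36.0 in the control libraries, and the Poxm points of the control, 3.39 and 4.10, lie above all points of the other genotypes, which reach 0.623 at most.

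In control oenocytes the 8 genes spanned a wide range of levels. exd stood highest at 36.0 ± 0.035 (mean ± SD, n = 2), followed by salr at 11.5 ± 0.23, hth at 11.2 ± 0.21 and salm at 10.7 ± 0.093. abd-A followed at 4.41 ± 0.38, Poxm at 3.74 ± 0.50 and Abd-B at 1.63 ± 0.40, and sv was lowest at 0.403 ± 0.089. The libraries of salr (11.6 and 11.3) and hth (11.3 and 11.0) overlapped, while the other neighbours in this order did not. Counts behind these levels ran from 12 for Poxm in an OE library to 4321 for hth in a VDRC330035 library, so Poxm, sv and Abd-B carried the largest counting error.

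Of the 6 genes not chosen on their readout, 5 passed the edgeR quasi-likelihood test (adjusted p under 0.05) between the libraries labelled VDRC330035 and control, where 62.3% of all 11729 genes tested did. There hth and sv were higher, a direction taken by 31.7% of all genes, and exd, salm and salr were lower, as were 30.6%. For BDSC#31593 the count was 4 of 6 beside 49.9% of all genes, with hth and sv higher (26.0% of all genes) and exd and salr lower (23.9%). For VDRC105005 it was 5 of 6 beside 52.7%, with salr alone higher (26.0%) and Abd-B, exd, hth and salm lower (26.7%). For OE it was 4 of 6 beside 65.0%, with hth higher (31.4%) and exd, salm and salr lower (33.7%). With most genes called in 3 of the 4 comparisons, a member passing the test is a common event, and the size and order of the differences carry more than the counts. The median absolute log2 difference of the 6 genes was 0.85 for VDRC330035, where it was 0.36 over all genes, 0.37 for BDSC#31593 (0.33 over all genes), 0.55 for VDRC105005 (0.32) and 0.61 for OE (0.46). The 4 comparisons share the control libraries. In these bulk samples fewer cells of a type and less RNA per cell cannot be told apart.

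**Figure D2:**
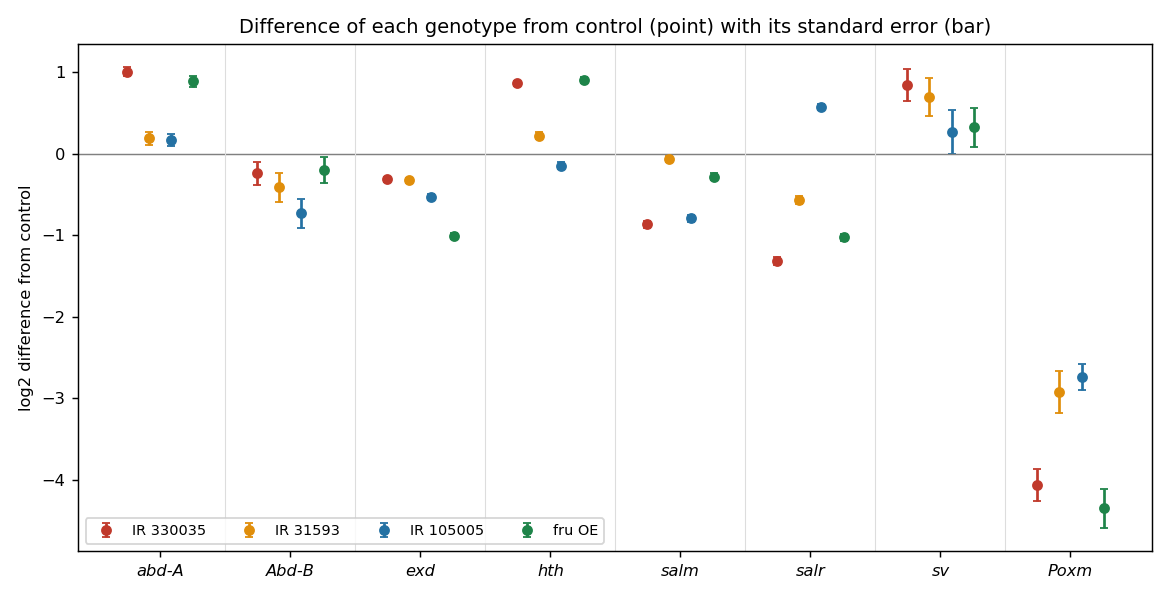
Difference of each genotype from control for the 8 genes (vertical axis, log2 difference from the edgeR fit, with its standard error as a bar; colours mark the 4 genotypes). exd is below 0 in all 4 genotypes, from -0.31 to -1.01, while hth and salr lie on both sides of 0; abd-A and Poxm were chosen for their difference and are shown as a description.

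abd-A, the Hox gene of the middle abdominal segments, lies on chromosome 3R at 16807214 to 16830049 (BDGP6.54 annotation, minus strand). Its level was 4.68 and 4.14 in control, 9.46 and 9.39 in the libraries labelled VDRC330035, 5.27 and 4.97 for BDSC#31593, 5.30 and 5.49 for VDRC105005, and 8.84 and 9.17 for OE. The genotypes thus fell into a high pair, VDRC330035 and OE, and a low group of control, BDSC#31593 and VDRC105005, and no genotype's libraries overlapped with those of its neighbour in this order. The log2 difference from control was 1.00 ± 0.06 for VDRC330035, 0.19 ± 0.08 for BDSC#31593, 0.17 ± 0.07 for VDRC105005 and 0.88 ± 0.06 for OE, given as values with no test. Differences at least this large in size were found for 13.9% of all genes tested for VDRC330035 and 23.1% for OE, but for 68.6% for BDSC#31593 and 71.1% for VDRC105005. As abd-A was chosen for its difference, these shares only describe its size and lend it no support. Between BDSC#31593 and VDRC105005 themselves the difference was 0.01 ± 0.06.

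Abd-B, the Hox gene of the posterior abdominal segments, lies on the same arm at 16927212 to 16972236, a gap of 97.2 kb from abd-A and on the same strand. Its level was 1.91 and 1.35 in control, 1.40 and 1.37 for VDRC330035, 1.15 and 1.28 for BDSC#31593, 1.05 and 0.968 for VDRC105005, and 1.41 and 1.65 for OE. The control replicates were further apart than those of any other genotype, and the VDRC330035 and OE libraries fell between them. Only for VDRC105005 did Abd-B pass the test against control, where it was lower (-0.73 ± 0.18, edgeR adjusted p = 0.0079), and without control replicate 1 that call was lost (-0.46, adjusted p = 0.074). The values for the others were -0.24 ± 0.14 for VDRC330035 (adjusted p = 0.14), -0.42 ± 0.18 for BDSC#31593 (adjusted p = 0.093) and -0.20 ± 0.16 for OE (adjusted p = 0.28), none of which passed. Without control replicate 2 all 3 did, at -0.49 for VDRC330035 (adjusted p = 0.001), -0.65 for BDSC#31593 (adjusted p = 0.029) and -0.45 for OE (adjusted p = 0.019). Which control library was kept therefore decided the calls for Abd-B.

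Within each library, Abd-B stood at 0.41 and 0.33 of the level of abd-A in control, and at 0.147 and 0.146 for VDRC330035, 0.22 and 0.26 for BDSC#31593, 0.20 and 0.18 for VDRC105005, and 0.16 and 0.18 for OE. The control ratios were above those of all other libraries. Because abd-A was chosen for its difference from control, ratios that include abd-A are given as a description only. abd-A was set beside Ubx too, the third gene of the bithorax complex and the most abundant Hox gene here, at 24.3 and 22.1 in control. Ubx was lower for VDRC330035 (-0.44, adjusted p = 5.7e-07) and BDSC#31593 (-0.29, adjusted p = 0.0017), higher for OE (0.44, adjusted p = 1e-06) and did not pass the test for VDRC105005 (0.02, adjusted p = 0.72). The ratio of abd-A to Ubx was 0.19 ± 0.004 in control and 0.60 ± 0.009 for VDRC330035 (SD, n = 2), with abd-A above and Ubx below its control level in the libraries labelled VDRC330035. Of the other Hox genes, Antp, which acts in the thorax, was lower for VDRC105005 (-0.59, adjusted p = 0.0012), lab did not pass the test in any of the 3 comparisons where it was tested, and pb, Dfd and Scr, which act in the head and first thoracic segment, stayed under the filter on low counts in all comparisons with control.

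exd, the gene of the TALE cofactor extradenticle, lies on chromosome X at 15992468 to 15996509 on the plus strand. Its level was 36.0 and 36.0 in control, 29.5 and 28.8 for VDRC330035, 29.1 and 28.6 for BDSC#31593, 26.0 and 25.0 for VDRC105005, and 18.7 and 17.8 for OE. Every library of the 4 other genotypes was below both control libraries, and OE was lowest. exd was lower than control for VDRC330035 (-0.31 ± 0.03, edgeR adjusted p = 1.1e-06), BDSC#31593 (-0.33 ± 0.04, adjusted p = 0.00013), VDRC105005 (-0.53 ± 0.04, adjusted p = 4.2e-06) and OE (-1.01 ± 0.04, adjusted p = 3e-10). exd is the only one of the 6 tested genes that passed in the same direction in all 4 comparisons with control, which share the same 2 control libraries. The share of all genes that did so was not counted. Differences at least as large as those of exd were found for 54.8% (VDRC330035), 49.8% (BDSC#31593), 30.6% (VDRC105005) and 18.4% (OE) of all genes. In the comparisons without control, VDRC330035 and BDSC#31593 overlapped (0.02 ± 0.04, adjusted p = 0.64), while OE was below each RNAi genotype (-0.66 ± 0.04 against VDRC330035 with adjusted p = 3.5e-09, -0.62 ± 0.04 against BDSC#31593 with adjusted p = 2.5e-05, and -0.41 ± 0.05 against VDRC105005 with adjusted p = 0.00015).

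hth, the gene of the partner cofactor homothorax, lies on 3R at 10507561 to 10639568 on the minus strand. Its level was 11.3 and 11.0 in control, 19.3 and 19.1 for VDRC330035, 13.0 and 12.5 for BDSC#31593, 9.92 and 10.5 for VDRC105005, and 21.9 and 22.7 for OE. The genotypes did not overlap, in the order OE, VDRC330035, BDSC#31593, control and VDRC105005. hth was higher than control for VDRC330035 (0.86 ± 0.03, edgeR adjusted p = 3.8e-11), for OE (0.91 ± 0.04, adjusted p = 7.1e-10) and for BDSC#31593 (0.22 ± 0.04, adjusted p = 0.0031), and lower for VDRC105005 (-0.15 ± 0.05, adjusted p = 0.026). The call for VDRC105005 was lost without control replicate 1 (adjusted p = 0.17), without control replicate 2 (adjusted p = 0.059) and without VDRC105005 replicate 2 (adjusted p = 0.076), and with DESeq2 (adjusted p = 0.21), and that for BDSC#31593 was lost with limma (adjusted p = 0.061).

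The ratio of the cofactors differed between the genotypes. hth stood at 0.32 and 0.31 of the level of exd in control, at 0.65 and 0.66 for VDRC330035, 0.45 and 0.43 for BDSC#31593, 0.38 and 0.42 for VDRC105005, and 1.17 and 1.28 for OE. In the OE libraries hth was the more abundant of the pair, which was the case in no library of the other genotypes. Of the 5 other TALE homeobox genes, achi was lower in all 4 comparisons with control (-0.96 for VDRC330035, -0.77 for BDSC#31593, -0.78 for VDRC105005 and -1.18 for OE, with edgeR adjusted p = 2e-07, 0.00023, 0.00018 and 2.5e-07). Its near-identical neighbour vis was higher for VDRC330035 (2.12, adjusted p = 6.1e-07), BDSC#31593 (0.91, adjusted p = 0.024) and VDRC105005 (1.48, adjusted p = 0.00099), and since achi and vis are a tandem duplicate that shares reads, how their counts were split is uncertain. mirr, an Iroquois gene, was lower for VDRC330035 (-0.71, adjusted p = 5.7e-10), VDRC105005 (-0.18, adjusted p = 0.0019) and OE (-0.22, adjusted p = 0.00062) and higher for BDSC#31593 (0.18, adjusted p = 0.0045).

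abd-A and hth had like profiles over the 10 libraries. When log2 CPM values were centred on each gene's mean, hth was the 33rd nearest of 9558 genes to abd-A, with a root mean square difference of 0.14, and abd-A was the 19th nearest to hth. The nearest to abd-A were CG4991 (0.065), the muscle actin gene Act87E (0.084), the FGF gene bnl that guides tracheal branching (0.093), the TNF receptor gene wgn (0.10) and elB (0.10). The root mean square of the centred abd-A values was itself 0.41. The nearest to hth was the potassium channel gene SK (0.057), followed by up, the gene of troponin T and one of the muscle markers used here (0.073). After these came yellow-d (0.0954), Spn47C (0.0982) and Fib (0.0985).

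The summed level of the 8 muscle markers was 672 to 673 in control, 1410 to 1420 for VDRC330035, 888 to 903 for BDSC#31593, 745 to 753 for VDRC105005 and 1310 to 1350 for OE. The order of the genotypes was the same as that of abd-A, except that BDSC#31593 and VDRC105005 were exchanged. Of the 8 markers, 5 were higher and 1 lower for VDRC330035, 6 and 0 for BDSC#31593, 5 and 2 for VDRC105005, and 6 and 1 for OE. Over all genes, 31.7%, 26.0%, 26.0% and 31.4% were higher in these comparisons, and 30.6%, 23.9%, 26.7% and 33.7% were lower. The markers that made up most of the sum were up, wupA, Mlc2 and Mhc, which encode parts of the contractile filaments, whereas the flight muscle markers Act88F, TpnC4 and fln stayed under 4 in every library. The log2 ratio of the sum to control was 1.07 for VDRC330035, 0.41 for BDSC#31593, 0.15 for VDRC105005 and 0.98 for OE.

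Set against 1000 units of that sum, abd-A was 6.97 and 6.15 in control, 6.64 and 6.67 for VDRC330035, 5.84 and 5.59 for BDSC#31593, 7.12 and 7.30 for VDRC105005, and 6.56 and 6.99 for OE. Its highest genotype mean was 1.26 times the lowest on this scale, compared with 2.14 times for the level itself. For hth the same quantities were 1.24 and 2.19 times. Dividing by the muscle sum widened the range instead for exd (3.91 times, compared with 1.98), salm (3.87, compared with 1.84), salr (7.29, compared with 3.85), Abd-B (2.48, compared with 1.62) and Poxm (34.6, compared with 17.4), and changed it little for sv (1.84, compared with 1.99). This scale was chosen after the values were seen. Summed markers of neurons (3.41 to 7.22) and Malpighian tubule (3.09 to 14.6) were also lowest in control and were highest for OE. So was the sum of accessory gland with ejaculatory duct or bulb (994 to 3490), but through EbpIII. Without EbpIII that sum was 36.6 and 37.0 in control and lowest for OE at 25.6 and 28.7. For OE, 7 of the 9 markers of this list were lower, as were 33.7% of all genes. The genotypes thus did not share one order over all marker lists, and the part of other tissue in the levels of abd-A and hth was not tested.

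**Figure D3:**
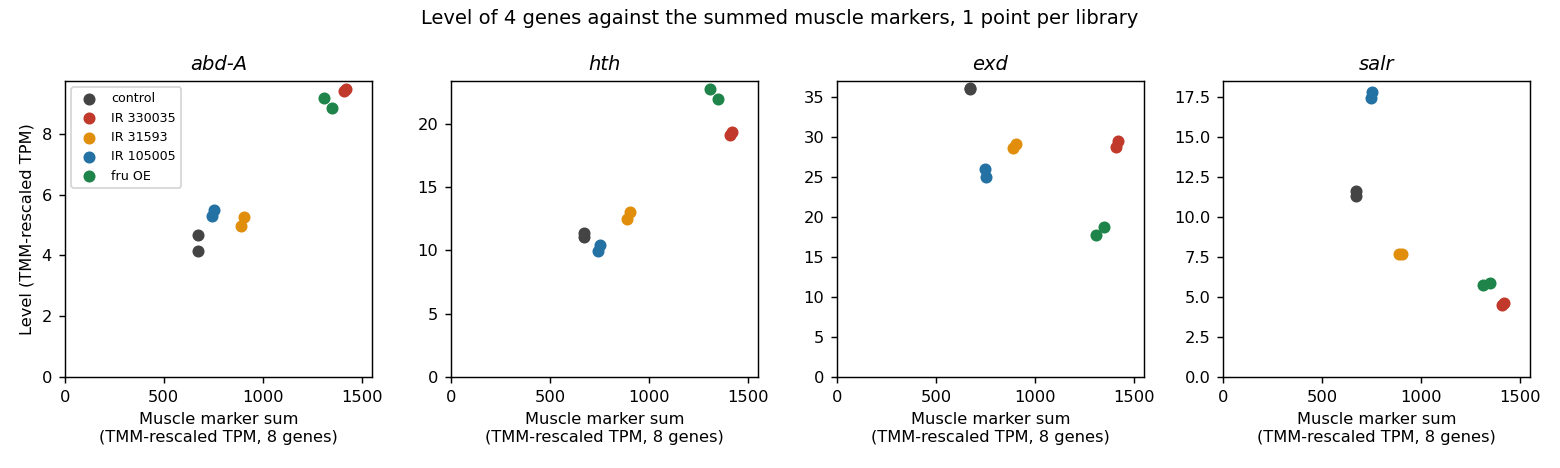
Level of abd-A, hth, exd and salr (vertical axes, TMM-rescaled TPM) against the summed level of the 8 muscle markers (horizontal axes, TMM-rescaled TPM), with 1 point per library coloured by genotype. The abd-A and hth points are highest in the genotypes with the highest muscle sums (1410 to 1420 for VDRC330035, 1310 to 1350 for OE), whereas the exd and salr points of these genotypes lie below control.

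salm, or spalt major, lies on chromosome 2L at 11434311 to 11445614 on the minus strand, and its sister gene salr, spalt-related, lies 60.7 kb away at 11358873 to 11373636 on the plus strand. The level of salm was 10.7 and 10.8 in control, 5.99 and 5.70 for VDRC330035, 10.4 and 10.1 for BDSC#31593, 6.28 and 6.34 for VDRC105005, and 9.41 and 9.88 for OE. The genotypes VDRC330035 and VDRC105005 were thus low and separated from the others. salm was lower than control for VDRC330035 (-0.87 ± 0.04, edgeR adjusted p = 2.3e-10), VDRC105005 (-0.79 ± 0.04, adjusted p = 8e-07) and OE (-0.28 ± 0.04, adjusted p = 5e-05), and for BDSC#31593 its difference was -0.07 ± 0.04 (adjusted p = 0.16). The OE call was lost with limma on the TMM-rescaled table (-0.14, adjusted p = 0.079). Between VDRC330035 and VDRC105005 the difference was -0.09 ± 0.05 (adjusted p = 0.17).

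The level of salr was 11.6 and 11.3 in control, 4.61 and 4.54 for VDRC330035, 7.70 and 7.71 for BDSC#31593, 17.4 and 17.8 for VDRC105005, and 5.91 and 5.76 for OE. The genotypes did not overlap, and VDRC105005 was the only one above control. salr was lower than control for VDRC330035 (-1.32 ± 0.05, edgeR adjusted p = 1e-11), BDSC#31593 (-0.57 ± 0.05, adjusted p = 2.6e-05) and OE (-1.03 ± 0.05, adjusted p = 1.4e-09), and was higher for VDRC105005 (0.58 ± 0.04, adjusted p = 3.1e-06). Its difference for VDRC330035 was the largest in size among the 6 tested genes in that comparison, a size reached by 8.43% of all genes tested. The sizes for BDSC#31593, VDRC105005 and OE were reached by 26.7%, 26.9% and 17.9% of all genes. Compared directly, the libraries labelled VDRC330035 were below those labelled VDRC105005 by -1.91 ± 0.04 (adjusted p = 6.3e-09), a size reached by 3.42% of all genes. The summed oenocyte markers had the same order of genotypes as salr, with VDRC105005 highest and OE and VDRC330035 lowest, except that control and BDSC#31593 were exchanged, and their part in the level of salr was not tested.

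The spalt genes are neighbours and are often expressed in the same cells, and here their ratio changed with the genotype. salr stood at 1.09 and 1.05 of the level of salm in control, at 0.77 and 0.80 for VDRC330035, 0.74 and 0.76 for BDSC#31593, 2.78 and 2.81 for VDRC105005, and 0.63 and 0.58 for OE. In the VDRC105005 libraries salm was lower and salr higher than in control, whereas in the VDRC330035 libraries both were lower. The gene nearest to salr on its other side, CG14926, was lower in all 3 RNAi genotypes (-0.51, -0.51 and -0.53, with adjusted p = 4e-06, 0.00021 and 0.00011) and did not pass the test for OE (0.01, adjusted p = 0.92). sala and CG43355, the next genes beyond salm, were below the filter on low counts.

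**Figure D4:**
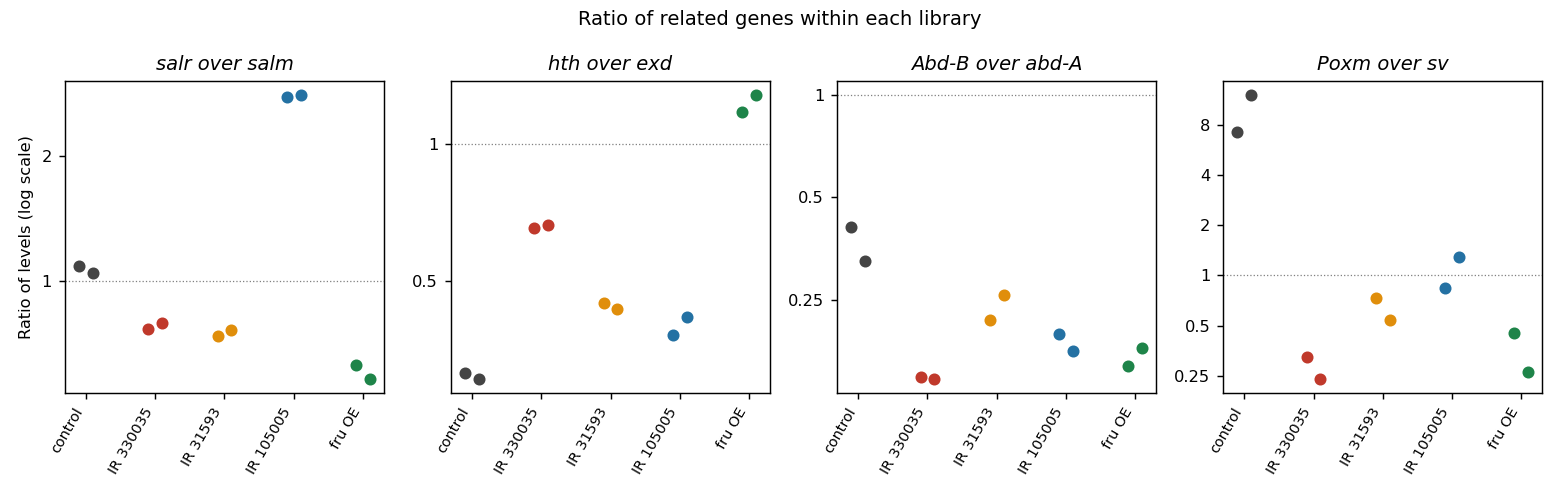
Ratio of the levels of related genes within each library (vertical axes, log scale; dotted line at a ratio of 1), with 2 points per genotype. salr over salm is 2.78 and 2.81 in the libraries labelled VDRC105005 and at most 1.09 elsewhere, and hth over exd exceeds 1 only in the OE libraries.

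sv, or shaven, the Pax gene of sense organ cells, lies on chromosome 4 at 1088798 to 1113317 on the plus strand. Its level was 0.466 and 0.340 in control, 0.854 and 0.748 for VDRC330035, 0.846 and 0.629 for BDSC#31593, 0.672 and 0.454 for VDRC105005, and 0.631 and 0.557 for OE. These levels rest on 44 to 145 counts per library, and the ranges of VDRC105005 and control overlapped, while those of VDRC330035, BDSC#31593 and OE lay above control. sv was higher than control for VDRC330035 (0.84 ± 0.20, edgeR adjusted p = 0.0022) and for BDSC#31593 (0.70 ± 0.24, adjusted p = 0.041), and the values for VDRC105005 (0.27 ± 0.27, adjusted p = 0.44) and OE (0.32 ± 0.24, adjusted p = 0.25) did not pass the test. The BDSC#31593 call was lost without control replicate 1 (adjusted p = 0.052), control replicate 2 (adjusted p = 0.22) or BDSC#31593 replicate 1 (adjusted p = 0.12), and with DESeq2 (adjusted p = 0.15). Exons of sv share 444 annotated bases with Cals on the opposite strand, which had 2134 to 6319 counts, and the library kit was not stated to keep the strand, so reads from those bases cannot be told apart.

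Poxm, or pox meso, lies on 3R at 8319025 to 8333792 on the minus strand. Its counts were 205 and 310 in control, 24 and 22 for VDRC330035, 39 and 16 for BDSC#31593, 39 and 35 for VDRC105005, and 15 and 12 for OE. On the length-corrected scale the level was 3.39 and 4.10 in control, 0.276 and 0.180 for VDRC330035, 0.623 and 0.342 for BDSC#31593, 0.564 and 0.583 for VDRC105005, and 0.284 and 0.147 for OE. The 8 libraries of the other genotypes all lay below both control libraries, in the order VDRC105005, BDSC#31593, VDRC330035 and OE, and within that order VDRC105005 overlapped with BDSC#31593, and VDRC330035 with OE. The log2 difference from control was -4.06 ± 0.19 for VDRC330035, -2.93 ± 0.26 for BDSC#31593, -2.74 ± 0.16 for VDRC105005 and -4.35 ± 0.24 for OE, given with no test since Poxm was picked for it. Differences of at least this size were found for 0.384%, 1.26%, 0.880% and 0.819% of all genes tested in these comparisons. As Poxm was picked for this difference, these shares only describe its size and lend it no support.

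Poxm was thus low in every genotype other than control, the RNAi and OE genotypes alike, and the control is also the genotype whose label lists UAS-mCD8-GFP. The driven transgene, the genetic background of each stock and the effect of fru cannot be told apart in this design. In control Poxm stood at 7.26 and 12.0 times the level of sv, compared with 0.32 and 0.24 times for VDRC330035, 0.74 and 0.54 for BDSC#31593, 0.84 and 1.28 for VDRC105005, and 0.45 and 0.26 for OE. These ratios follow in part from the choice of Poxm and are a description only. The genes with the profile most like that of Poxm over the 10 libraries were beat-Vc, of a family of neuronal immunoglobulin proteins (root mean square difference 0.385), CG11438 (0.433), CG13437 (0.56), the nicotinamidase gene Naam (0.574) and twz (0.587), beside 1.50 for the centred Poxm values themselves. With 12 to 39 Poxm counts in each library outside the control, these distances include a large counting error. None of the marker sums of muscle or of the other cell types was highest in control, and that of muscle was lowest there.

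The transcribed region of Poxm overlaps Ctr1B, a copper transporter gene on the opposite strand with 252 to 753 counts, and 181 annotated exon bases are common to both, which without strand cannot be assigned. Ctr1B was itself lower in all 4 comparisons (-1.37 for VDRC330035, -0.85 for BDSC#31593, -0.30 for VDRC105005 and -0.70 for OE, with edgeR adjusted p = 3.7e-09, 6.7e-05, 0.0099 and 4.8e-06). CG7443 and Or85a, the other genes inside the Poxm region, had at most 4 and 3 counts in any library. COX7A, a subunit gene of respiratory complex IV whose start lies 7.25 kb upstream, was lower in all 4 too, by -1.11, -0.22, -0.25 and -1.01 (adjusted p = 4e-15, 1.9e-05, 1.8e-05 and 2.4e-13). Coq2, 17.2 kb downstream, gave -0.17 for VDRC330035 (adjusted p = 0.052), -0.80 for BDSC#31593, -0.57 for VDRC105005 and -0.86 for OE, the last 3 with adjusted p = 0.00014, 0.00065 and 2.5e-06.

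exd has a close neighbour that was lower together with it in each comparison with control. The start of eIF5, a translation initiation factor gene on the opposite strand, lies 0.494 kb upstream of that of exd, and the annotated genes do not overlap. eIF5 was lower by -0.45 for VDRC330035, -0.42 for BDSC#31593, -0.51 for VDRC105005 and -1.17 for OE (edgeR adjusted p = 1.5e-10, 8.4e-07, 2.7e-07 and 1.8e-13), beside -0.31, -0.33, -0.53 and -1.01 for exd. The gene on the other side of exd, CG8939, was higher for VDRC330035 (0.65, adjusted p = 8e-07) and OE (0.42, adjusted p = 0.00019) and did not pass for BDSC#31593 (-0.12, adjusted p = 0.26) or VDRC105005 (0.02, adjusted p = 0.86). CG46312, annotated inside the region of eIF5, is left out here because the counting could split reads between them. Of the genes on either side of abd-A, MSAmiP, at a gap of 1.07 kb, reached a level of 0.289 at most and was tested for VDRC330035 alone, where it was higher (1.72, adjusted p = 0.018). Glut3, at a gap of 17.2 kb on the other side, was lower in all 4 comparisons (-1.30, -2.01, -0.75 and -1.50, with adjusted p = 4.7e-08, 4.8e-06, 0.00015 and 1.2e-06).

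**Figure D5:**
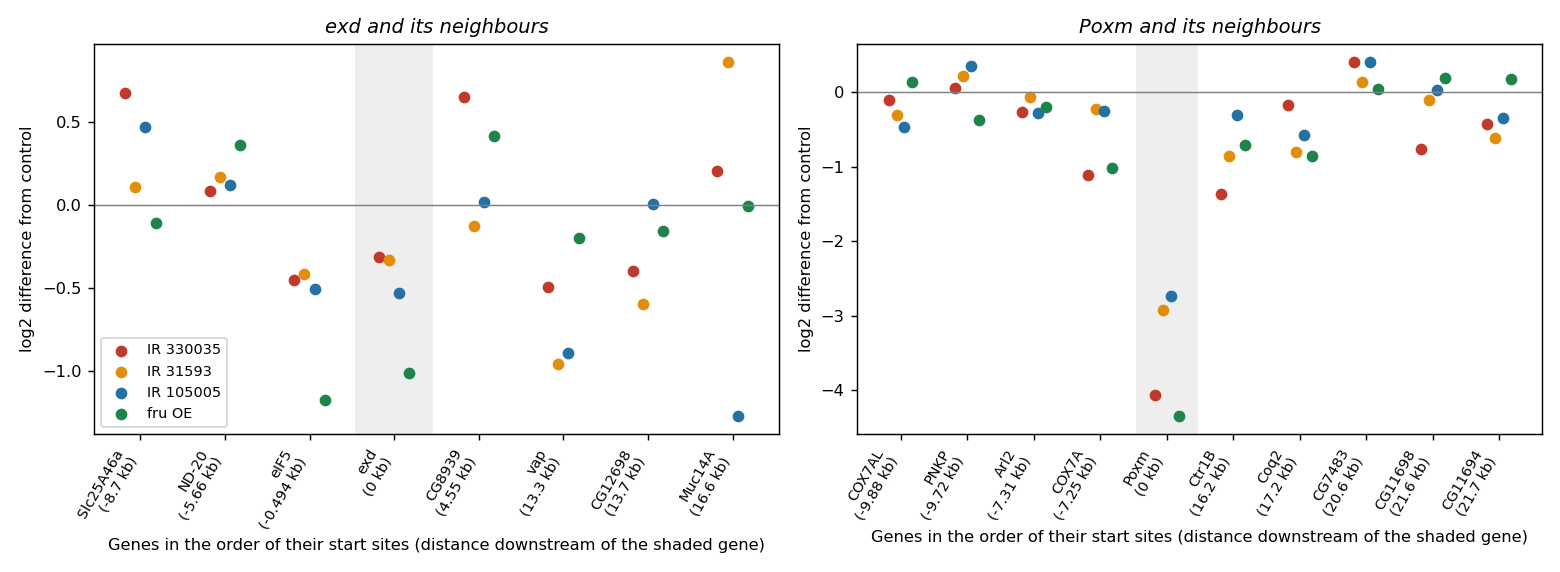
Difference from control (vertical axes, log2) of exd and Poxm (shaded) and of their annotated neighbours that were tested, in the order of their start sites with the distance in kb; colours mark the 4 genotypes. eIF5, whose start is 0.494 kb from that of exd, is below 0 in all 4 genotypes with OE lowest (-1.17), as is exd, and the lowest value among the neighbours of Poxm is that of Ctr1B at -1.37; Poxm was chosen for its difference.

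In the 6 comparisons without the control libraries, the 6 tested genes passed in 3 cases between VDRC330035 and BDSC#31593 (51.7% of all genes passed), 4 between VDRC330035 and VDRC105005 (56.6%), 4 between BDSC#31593 and VDRC105005 (36.3%), 5 between OE and VDRC330035 (67.9%), 4 between OE and BDSC#31593 (59.8%) and 5 between OE and VDRC105005 (61.9%). The genes that separated VDRC330035 from BDSC#31593 were hth, higher in VDRC330035 by 0.65 ± 0.03 (edgeR adjusted p = 2.8e-06), salm, lower by -0.79 ± 0.04 (adjusted p = 4.4e-06), and salr, lower by -0.75 ± 0.04 (adjusted p = 6.7e-06). Between BDSC#31593 and VDRC105005, the pair with the fewest genes called, hth (0.36 ± 0.04, adjusted p = 0.00073) and salm (0.71 ± 0.04, adjusted p = 4.1e-05) were higher in BDSC#31593 and salr lower (-1.15 ± 0.04, adjusted p = 5e-06). exd was higher in BDSC#31593 as well (0.19 ± 0.04, adjusted p = 0.014), a call lost without BDSC#31593 replicate 1 (adjusted p = 0.076) or VDRC105005 replicate 2 (adjusted p = 0.072). hth and salr thus passed the test between every pair of RNAi genotypes, and salm between all but VDRC330035 and VDRC105005.

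OE and VDRC330035, although labelled as overexpression and knockdown, were close in abd-A (-0.08 ± 0.04, no test) and hth (0.08 ± 0.03, adjusted p = 0.032, lost with DESeq2 at adjusted p = 0.098 and without OE replicate 2 at adjusted p = 0.22). They differed in salm, higher in OE by 0.62 ± 0.05 (adjusted p = 2.5e-08), salr, higher by 0.33 ± 0.05 (adjusted p = 7.1e-05), and exd as given above. sv was lower in OE (-0.47 ± 0.18, adjusted p = 0.03), a call lost without OE replicate 1 (adjusted p = 0.055), OE replicate 2 (adjusted p = 0.071) or VDRC330035 replicate 1 (adjusted p = 0.18). Both genotypes had more fru counts than control. So did BDSC#31593 (fru log2 difference 1.03), where abd-A was 0.19 and hth 0.22 above control. A link of these genes to the fru counts was not tested. Against VDRC105005, the only RNAi genotype with fewer fru counts than control, OE was higher in hth (1.12 ± 0.04, adjusted p = 1.4e-07), salm (0.58 ± 0.05, adjusted p = 1.7e-05) and Abd-B (0.59 ± 0.13, adjusted p = 0.0057, and 0.056 without OE replicate 2) and lower in salr (-1.53 ± 0.04, adjusted p = 3.1e-08).

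Other Pax genes were expressed at low levels, with toe the highest at 1.18 and 0.922 in control. For VDRC330035, 3 of the 5 tested were higher and none lower, namely prd (0.89, adjusted p = 0.044), the eye gene ey (0.82, adjusted p = 0.001) and toe (0.70, adjusted p = 0.0028). For BDSC#31593 toe alone of 5 passed (1.26, adjusted p = 0.00073), and for VDRC105005 ey alone of 5, lower (-0.78, adjusted p = 0.033). For OE, ey was lower (-2.29, adjusted p = 0.00023) and eyg higher (0.91, adjusted p = 0.037) among 6 tested. Over all genes, 62.3% were called for VDRC330035, 49.9% for BDSC#31593, 52.7% for VDRC105005 and 65.0% for OE. None of these Pax genes was called lower in all 4 comparisons, but only 5 or 6 of the 8 listed passed the filter on low counts. Poxm, chosen for its difference, was not tested and is not set against them.

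Other genes act in the formation of embryonic oenocytes, downstream of or beside abd-A and the spalt genes. Their counts, and those of the lists below, are to be read beside the 62.3%, 49.9%, 52.7% and 65.0% of all genes called for VDRC330035, BDSC#31593, VDRC105005 and OE. Of the 11 tested, 7 were higher and 3 lower for VDRC330035 (median log2 difference 0.45), 8 and 0 for BDSC#31593 (0.33), 3 and 2 for VDRC105005 (0.07), and 8 and 3 for OE (0.63), beside medians over all genes between -0.02 and 0.04. rho, the target of abd-A in the precursor, was higher for VDRC330035 (1.43, adjusted p = 2.9e-07), BDSC#31593 (0.87, adjusted p = 0.0054) and OE (0.89, adjusted p = 0.00039), and gave 0.38 for VDRC105005 (adjusted p = 0.13). Its level remained low, from 0.844 and 1.06 in control to 2.56 and 2.74 for VDRC330035. Egfr, the receptor, was higher in all 4 comparisons, by 0.37 for VDRC330035, 0.76 for BDSC#31593, 1.12 for VDRC105005 and 0.47 for OE (adjusted p = 2.3e-06, 2.9e-06, 7.8e-08 and 6.5e-07). knrl was higher for VDRC330035 (1.00, adjusted p = 3.5e-07) and OE (0.95, adjusted p = 2.5e-06), and Hnf4, a nuclear receptor of lipid metabolism, was lower for VDRC330035 (-0.75, adjusted p = 3.5e-13) and OE (-0.89, adjusted p = 1.1e-12) and higher for BDSC#31593 (0.22, adjusted p = 1.4e-05) and VDRC105005 (0.07, adjusted p = 0.012). S, which carries the Egfr ligand, was lower for OE (-0.82, adjusted p = 9.3e-07) and VDRC105005 (-0.24, adjusted p = 0.025).

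Of 5 genes of abdominal pigmentation, some of which are controlled by Abd-B, 3 were higher and none lower in each RNAi genotype, where 26.0% to 31.7% of all genes were higher, and 2 were higher and 1 lower for OE. t, the tan hydrolase gene, was higher by 1.46 for VDRC330035, 1.45 for BDSC#31593, 1.17 for VDRC105005 and 1.01 for OE (adjusted p = 4.4e-10, 7.5e-07, 1.7e-06 and 7.9e-08). e, the ebony gene, was higher by 0.69, 2.04, 0.88 and 0.62 in the same order (adjusted p = 6.6e-05, 6.8e-07, 0.00016 and 0.00072). bab2, a repressor of pigment genes, was higher for VDRC330035 (0.15), BDSC#31593 (0.35) and VDRC105005 (0.18) and lower for OE (-0.26), with adjusted p = 0.00016, 1.3e-05, 0.00023 and 1.1e-05.

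Polycomb group proteins keep Hox genes silent and trithorax group proteins keep them active. Of 20 Polycomb group genes, 4 were higher and 9 lower for VDRC330035, 5 and 5 for BDSC#31593, 2 and 2 for VDRC105005, and 2 and 12 for OE, where the median log2 difference was -0.37 beside 0.04 over all genes. The shares called for VDRC330035 and BDSC#31593 were thus close to those over all genes, and that for VDRC105005 was below it. In OE, Scm (-1.21, adjusted p = 5.7e-09), Sce (-0.80, adjusted p = 0.00052) and ph-d (-0.71, adjusted p = 1.6e-05) had the largest differences among those called. Of 15 trithorax group genes, 9 were higher and 2 lower for VDRC330035, 7 and 0 for BDSC#31593, 9 and 1 for VDRC105005, and 6 and 7 for OE. Over all genes, in the same order, 31.7%, 26.0%, 26.0% and 31.4% were higher and 30.6%, 23.9%, 26.7% and 33.7% lower. trx was higher in all 4 comparisons, by 0.79, 0.53, 0.44 and 0.43 (adjusted p = 2.8e-09, 0.00014, 0.00031 and 1.4e-05), and mor was lower for VDRC330035 (-0.51, adjusted p = 2.2e-06) and OE (-0.71, adjusted p = 5.6e-07) and higher for VDRC105005 (0.32, adjusted p = 0.002).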

How the data were processed

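Per the labels and the methods of the study, the authors trimmed reads with fastp 0.22.0, aligned them to dme6 with Bowtie2 and estimated abundance with RSEM 1.2.31; edgeR 3.36.0 served their own comparisons. The expected counts in the deposited table come from RSEM as run by the authors, are not normalized, and were rounded to whole numbers here. The deposited TPM values are the authors' length-corrected abundances, and a further deposited table holds these TPM values multiplied by a TMM factor per library, the scale of all levels given. The annotation counted on is not given in the sources used here, and positions come from BDGP6.54, where all 8 genes were found by FlyBase identifier.

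Each comparison used its own 4 libraries. Genes passing filterByExpr (minimum count 10, minimum total 15) were normalized by TMM and tested with glmQLFit and glmQLFTest of edgeR 4.0.16 in R 4.3.3, with Benjamini-Hochberg adjustment over all genes tested, and called at an adjusted p under 0.05. The procedure was tested on simulated counts with known changes. Named were the 8 genes, fru, neighbouring genes, the 5 genes of most similar profile (log2 CPM, prior count 2, genes with a mean of at least 50 counts) and up to 3 called genes per list with the largest difference, of which some are left out; further genes (Hnf4, S, bab2, mor and genes of the same list that did not pass) were added after their values were seen. The members and lists were chosen with earlier results of these data known. Alternatives were DESeq2 1.42.0, limma 3.58.1 on log2 of the TMM-rescaled values plus 1 or 0.1, library size alone, other count filters, one fit of all 10 libraries, the replicate block, and each replicate left out. Replicate numbers were not used as pairs: with 2 replicates the correlations of same-numbered deviations from the group means ranged from -0.02 to 0.54 and no label says that a number marks a shared batch. No library was left out.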

Additional observations from a re-analysis of the deposited data

Results flagged for a closer look

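Of the 6 tested genes, 2 lay on opposite sides of control in RNAi genotypes of the same target. These genotypes also differed in a direct test that did not use the control libraries. The share of all genes that did so was not counted. Against control, 62.3% (VDRC330035), 49.9% (BDSC#31593) and 52.7% (VDRC105005) of all genes were called. Against VDRC105005, 56.6% (VDRC330035) and 36.3% (BDSC#31593) were. Differences as large as those of hth from control were found for 18.4%, 63.8% and 74.4% of all genes for VDRC330035, BDSC#31593 and VDRC105005. hth was higher than control for VDRC330035 (0.86) and BDSC#31593 (0.22) and lower for VDRC105005 (-0.15), although the latter call was lost with DESeq2 (adjusted p = 0.21), with limma (adjusted p = 0.13) and without either control library (adjusted p = 0.17 and 0.059) or VDRC105005 replicate 2 (adjusted p = 0.076). The BDSC#31593 call for hth was lost with limma (adjusted p = 0.061 plus 1 and 0.058 plus 0.1). It was also lost with edgeR on library size alone (0.057, adjusted p = 0.27). For hth, the difference of VDRC330035 from VDRC105005 was 0.99 ± 0.03 (log2 ± SE, edgeR adjusted p = 1.1e-07), and that of BDSC#31593 from VDRC105005 was 0.36 ± 0.04 (adjusted p = 0.00073). salr was lower than control for VDRC330035 (-1.32) and BDSC#31593 (-0.57) and higher for VDRC105005 (0.58). The difference of VDRC330035 from VDRC105005 was -1.91 ± 0.04 (adjusted p = 6.3e-09), and that of BDSC#31593 from VDRC105005 was -1.15 ± 0.04 (adjusted p = 5e-06). The libraries labelled VDRC105005 are the RNAi libraries in which fru counts were lower than in control.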

How the results depend on the processing

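With 2 libraries per genotype each call leans on the spread estimated over all genes, and where a genotype was left with 1 library, that library was assumed to vary like the rest. With the replicate block, between 3 and 5 of the 6 tested genes were called per comparison, and 1 gene call changed (sv, VDRC330035 against VDRC105005, 0.57, adjusted p = 0.028). With limma on TMM-rescaled values, plus 1 or plus 0.1, 2 genes were called for BDSC#31593 and 3 for VDRC105005 against control, in place of 4 and 5. For OE against VDRC330035 the count was 3, in place of 5, with DESeq2 and with all 10 libraries in one fit, and for VDRC330035 against BDSC#31593 it was 6, in place of 3, with library size alone. Leaving out 1 library gave 3 to 5 calls for VDRC105005 against control and 3 to 4 for OE against VDRC330035. Library size alone moved the median of all genes by 0.21 (VDRC330035), -0.16 (BDSC#31593) and 0.17 (OE) against control, and the TMM-rescaled table moved it by 0.12 for OE. salm reversed under library size alone, to 0.23 for VDRC330035 against VDRC105005 (all genes moved by 0.32) and to 0.12 for OE against BDSC#31593 (moved by 0.29). Leave-one-out values that changed sign ranged from -0.49 to 0.0041 for Abd-B in VDRC330035 and from -0.45 to 0.042 for Abd-B in OE against control, from -0.013 to 0.52 for sv in VDRC105005 against control, from -0.022 to 0.042 for exd in VDRC330035 against BDSC#31593 and from -0.14 to 0.41 for sv in OE against VDRC105005. For Poxm the difference from control lay between -4.83 and -1.59 over the alternative runs of the 4 genotypes. For abd-A it ranged from 0.02 for BDSC#31593 to 1.22 for VDRC330035, both with library size alone. Both genes were chosen for this difference in these same libraries, so its constant sign lends it no support. The cause of these changes was not tested.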
